A study of Homo sapiens with 30 samples.

Results

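A group of 10 carriers that move amino acids across the plasma membrane was followed in SW1783 cells, a human astrocytoma line, after exposure to herbal extracts. They are SLC7A5, SLC3A2, SLC7A8, SLC7A1, SLC38A2, SLC38A1, SLC1A4, SLC1A5, SLC6A9 and SLC43A1, chosen by name as plasma membrane amino acid carriers other than the cystine and glial glutamate carriers. The choice was made with earlier results of these data known. Each symbol matched 1 row of the deposited table, so the group makes up 10 of 60675 genes, and all 10 passed the filter on low counts that left 19632 genes for testing.

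The cells were cultured for 24 h with ethanol extracts of 4 Korean herbal formulas at 500, 100 or 20 µg/mL, or with dimethyl sulfoxide as the vehicle, and total RNA was sequenced in 30 libraries. Each dose was sequenced in 3 libraries for Bojungikgi-tang and for Sayeok-tang, in 2 for Banhasasim-tang and in 1 for Yijung-tang, and the vehicle in 3. The sample labels carry a set code, which is 15 for Bojungikgi-tang and Sayeok-tang, 14 for Banhasasim-tang and Yijung-tang, and E1 for the vehicle. The dose of a formula was therefore compared within 1 label set, whereas in every comparison with the vehicle the extract and the label set cannot be told apart. Whether replicates are separate cultures is not in the labels, and the p-values cover no more than the scatter among these libraries, which may be technical.

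Some amino acid carriers are exchangers, which trade an internal amino acid for an external one, some take amino acids up with the sodium gradient, and others, such as SLC7A1 and SLC43A1, let them pass without either. SLC7A5 (LAT1) and SLC7A8 (LAT2) are light chains that exchange large neutral amino acids such as leucine, and each must pair with the heavy chain SLC3A2 (CD98hc, also written 4F2hc) to reach the cell surface. Several of these genes are known targets of ATF4, the transcription factor of the amino acid response, and astrocytes are known for the glutamine and glycine traffic in which SLC1A5, SLC38A1, SLC38A2 and SLC6A9 take part.

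Library totals ran from 28008057 to 59895899 expected counts, and those of the vehicle from 28008057 to 37406875, at the shallow end. Of 8 astrocyte markers, 3 reached 1 CPM (counts relative to the TMM-scaled library total) in the vehicle mean and AQP4, the astrocyte water channel, was at 0. The astrocyte marker sum lay between 348 and 358 CPM in vehicle, between 292 and 301 CPM with Sayeok-tang at 500 µg/mL and between 211 and 212 CPM with Banhasasim-tang at 500 µg/mL. At 20 µg/mL it was already 307 to 317 CPM with Bojungikgi-tang, 306 to 310 CPM with Sayeok-tang, 310 to 316 CPM with Banhasasim-tang and 309 CPM with Yijung-tang. The sum of 6 neuron markers was 169 to 174 CPM in vehicle. It was 155 to 163 CPM at 20 µg/mL and 102 to 105 CPM at 500 µg/mL of Sayeok-tang. With Banhasasim-tang it was 151 to 158 CPM and 84.1 to 90.1 CPM at these doses. The part of these shifts in the results was not tested. Of the other marker lists, 1 of 5 oligodendrocyte markers reached 1 CPM with MOG at 0, 3 of 6 microglia and macrophage markers did with AIF1 at 0, and 3 of 6 epithelial markers did with none at 0. At 500 µg/mL the microglia and macrophage sum was 230 to 248 CPM with Bojungikgi-tang, 235 to 242 CPM with Sayeok-tang, 213 to 244 CPM with Banhasasim-tang and 261 CPM with Yijung-tang, against 152 to 162 CPM in vehicle. At 20 µg/mL it was already 185 to 223 CPM over the 4 formulas, while PTPRC of the same list fell from 20 to 500 µg/mL in the 3 replicated formulas (-0.81, -1.02 and -1.92 in the same order). At 500 µg/mL the epithelial sum was 579 to 654 CPM with Bojungikgi-tang against 853 to 879 CPM in vehicle. All libraries come from the SW1783 line, so these sums do not count cells of the named types. In bulk RNA, fewer cells that express a marker and less of its RNA per cell cannot be told apart.

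The starts of these genes were read because most of the transcripts moved together across formulas. RefSeq (GRCh38.p14) lists 20 starts for the 10 genes, and each was searched on both strands from 150 bases before to 30 bases after the start. The letters searched were TGATGNAA, the composite element that ATF4 dimers are known to bind, TGACNNNGC, the core of the antioxidant response element, and CACGTG, the palindromic E-box. The windows shown are those of SLC7A5 and its partner SLC3A2, and of SLC38A1, SLC1A4 and SLC1A5, which hold TGATGNAA. That of SLC7A8 is the first of 4 listed starts and holds no match. The windows of SLC1A4 and SLC1A5 are listed starts 2 and 3, and start 1 of each holds no match. SLC7A1 also holds TGATGNAA and is not shown, so the choice of windows is no comparison of carriers. Capitals mark the matches, and each window is written 5′ to 3′ on the strand of the gene.
SLC7A5, chr16:87869478-87869657, minus strand: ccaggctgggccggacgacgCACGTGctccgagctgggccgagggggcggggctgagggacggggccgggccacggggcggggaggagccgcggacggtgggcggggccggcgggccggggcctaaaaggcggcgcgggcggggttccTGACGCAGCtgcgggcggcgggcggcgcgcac
SLC3A2, chr11:62881549-62881728, plus strand: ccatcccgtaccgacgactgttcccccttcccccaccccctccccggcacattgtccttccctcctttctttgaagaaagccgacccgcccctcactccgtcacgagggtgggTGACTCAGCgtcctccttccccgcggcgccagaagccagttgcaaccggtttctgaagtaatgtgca
SLC38A1, chr12:46266487-46266666, minus strand: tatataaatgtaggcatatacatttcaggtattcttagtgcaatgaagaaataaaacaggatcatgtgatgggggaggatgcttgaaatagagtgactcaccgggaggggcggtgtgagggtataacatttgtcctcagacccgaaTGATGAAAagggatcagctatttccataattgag
SLC1A4, chr2:64989249-64989428, plus strand: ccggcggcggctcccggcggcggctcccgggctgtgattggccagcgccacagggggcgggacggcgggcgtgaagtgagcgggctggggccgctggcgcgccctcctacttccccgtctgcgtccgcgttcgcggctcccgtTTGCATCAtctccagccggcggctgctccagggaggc
SLC1A5, chr19:46784785-46784964, minus strand: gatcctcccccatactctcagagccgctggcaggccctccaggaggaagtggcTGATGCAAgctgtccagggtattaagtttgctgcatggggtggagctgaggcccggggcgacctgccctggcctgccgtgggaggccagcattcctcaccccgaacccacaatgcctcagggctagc
SLC7A8, chr14:23155291-23155470, minus strand: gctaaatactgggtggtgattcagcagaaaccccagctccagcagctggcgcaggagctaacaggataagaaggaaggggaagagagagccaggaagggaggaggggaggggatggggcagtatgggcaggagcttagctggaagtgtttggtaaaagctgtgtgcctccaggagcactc

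In the SLC7A5 window the E-box begins 130 bases upstream of the start, and the antioxidant core begins 2 bases upstream of it. The SLC3A2 window holds an antioxidant core 37 bases upstream, whose letters also contain the AP-1 site TGACTCA. TGATGNAA begins 97 bases upstream in this SLC1A5 window, 4 bases upstream in that of SLC38A1 and 7 bases upstream, on the opposite strand, in that of SLC1A4. Over all 10 genes, TGATGNAA lay at 4 of the 20 starts (SLC1A4, SLC1A5, SLC38A1 and SLC7A1), and 2.21% of all 35116 RefSeq windows of this length hold it. TGACNNNGC lay at 4 starts (SLC1A5, SLC3A2, SLC7A1 and SLC7A5) against 8.84% of all windows, and CACGTG at 4 (SLC1A5, SLC43A1, SLC7A5 and SLC7A8) against 5.19%. Another SLC7A8 start holds a CACGTG, and SLC6A9 has no match at its listed start. A match is a run of letters and not a shown site, and the counts per gene do not tell which start was used.

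SLC7A5, the leucine exchanger (ENSG00000103257, chr16:87830023-87869488, minus strand, GRCh38), read 176, 163 and 172 CPM in the 3 vehicle libraries. With Bojungikgi-tang the libraries read 181, 157 and 175 CPM at 20 µg/mL, 179, 186 and 197 CPM at 100 µg/mL, and 260, 248 and 236 CPM at 500 µg/mL. Sayeok-tang gave 233, 176 and 174 CPM at 20 µg/mL, 216, 215 and 199 CPM at 100 µg/mL, and 384, 378 and 397 CPM at 500 µg/mL. All libraries at 500 µg/mL stood above all libraries at 20 µg/mL of the same formula, and replicate 1 of Sayeok-tang at 20 µg/mL stood apart from the other two. Banhasasim-tang libraries read 215 and 203 CPM at 20 µg/mL, 450 and 445 CPM at 100 µg/mL and 556 and 585 CPM at 500 µg/mL, so that its rise was already present at the middle dose. From 20 to 500 µg/mL, SLC7A5 rose by a log2 fold change of 0.54 ± 0.08 (SE; adjusted p = 2.83e-05) with Bojungikgi-tang, 0.99 ± 0.08 (adjusted p = 1.61e-09) with Sayeok-tang and 1.45 ± 0.10 (adjusted p = 1.6e-11) with Banhasasim-tang, by edgeR's quasi-likelihood test with Benjamini-Hochberg adjustment over all genes. These log2 values correspond to ratios of mean CPM of 1.45, 1.99 and 2.73.

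SLC3A2, the heavy chain (ENSG00000168003, chr11:62856102-62888875, plus strand), read 146, 147 and 153 CPM in vehicle. At 20 µg/mL it read 151, 170 and 139 CPM with Bojungikgi-tang, 155, 155 and 160 CPM with Sayeok-tang and 161 and 162 CPM with Banhasasim-tang. At 500 µg/mL these became 186, 193 and 185 CPM, 292, 307 and 311 CPM, and 389 and 410 CPM. No library at 500 µg/mL overlapped those at 20 µg/mL of its formula. The transcript rose by a log2 fold change of 0.30 ± 0.05 (adjusted p = 0.000237), 0.95 ± 0.05 (adjusted p = 2.31e-13) and 1.304 ± 0.067 (adjusted p = 3.45e-15) in that order of formulas, by edgeR's quasi-likelihood test. With Banhasasim-tang at 100 µg/mL SLC3A2 read 231 and 238 CPM, a rise of 0.54 ± 0.07 over 20 µg/mL where SLC7A5 rose by 1.10 ± 0.10.

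SLC7A8, the other light chain (ENSG00000092068, chr14:23125295-23183674, minus strand), departed from this order. It read 9.89, 9.74 and 10.9 CPM in vehicle, and with Bojungikgi-tang 16.0, 13.8 and 16.8 CPM at 20 µg/mL, 18.8, 19.3 and 21.4 CPM at 100 µg/mL and 27.4, 29.7 and 26.8 CPM at 500 µg/mL. Each Bojungikgi-tang dose lay above the one before it without overlap. With Sayeok-tang it read 12.7, 14.2 and 15.1 CPM at 20 µg/mL and 16.7, 16.6 and 19.6 CPM at 500 µg/mL. With Banhasasim-tang it read 13.9 and 12.7 CPM at 20 µg/mL, 11.7 and 11.0 CPM at 100 µg/mL and 9.92 and 10.4 CPM at 500 µg/mL, and at the top dose its libraries overlapped the vehicle range. From 20 to 500 µg/mL SLC7A8 rose by a log2 fold change of 0.84 ± 0.07 (adjusted p = 4.26e-09) with Bojungikgi-tang and 0.33 ± 0.08 (adjusted p = 0.00253) with Sayeok-tang, and fell by 0.39 ± 0.10 (adjusted p = 0.00284) with Banhasasim-tang, by edgeR's quasi-likelihood test. Without replicate 2 of Banhasasim-tang at 20 µg/mL the fall was -0.32 with an adjusted p of 0.054 in the same edgeR fit. SLC7A8 was also the only one of the 10 carriers called between 100 and 20 µg/mL of Bojungikgi-tang, where 1.56% of all genes were called, 0.458% higher and 1.11% lower (0.35 ± 0.08, edgeR adjusted p = 0.016). That call was lost without replicate 2 at 20 µg/mL (0.28, edgeR adjusted p = 0.082) or replicate 3 at 100 µg/mL (0.29, edgeR adjusted p = 0.099), and when the 2 groups were fitted alone, and library size scaling turned the split of all genes called there from 90 higher and 217 lower to 141 and 114.

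Set per kilobase of exons, SLC7A5 exceeded SLC7A8 by 21.2 ± 1.35 times in vehicle (mean ± SD of 3 libraries). That ratio was 13.9 ± 0.639 at 20 µg/mL and 11.2 ± 0.736 at 500 µg/mL of Bojungikgi-tang (n = 3 each), and 17.8 ± 4.74 and 27.8 ± 1.94 at the same doses of Sayeok-tang (n = 3 each). With Banhasasim-tang it was 19.9 ± 0.514 at 20 µg/mL, 49.9 ± 2.04 at 100 µg/mL and 70.9 ± 0.305 at 500 µg/mL (n = 2 each). The ratio of the 2 light chain transcripts spanned 10.5 to 71.2 across single libraries at the top dose, with no overlap among these 3 formulas. The heavy chain stood at 0.801 ± 0.0386 of SLC7A5 per kilobase in vehicle (n = 3), a label set of its own. At 20 and 500 µg/mL it stood at 0.827 ± 0.142 and 0.696 ± 0.0362 with Bojungikgi-tang (n = 3 each). With Sayeok-tang it was 0.753 ± 0.126 and 0.721 ± 0.0239 at these doses (n = 3 each). With Banhasasim-tang it was 0.710 ± 0.0325, 0.480 ± 0.0148 and 0.641 ± 0.000106 at 20, 100 and 500 µg/mL (n = 2 each). The Yijung-tang libraries gave 0.840 and 0.855 at 20 and 500 µg/mL. Which of SLC3A2 and SLC7A5 stands higher depends on the length used. Per kilobase of the longest transcript, their vehicle levels were 67.0 and 37.6 CPM. That of SLC7A8 was 2.42 CPM, against 1.70 CPM per kilobase of all exons. The size of the light chain ratio therefore depends on the length too, and all these ratios compare groups and not genes.

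**Figure D1:**
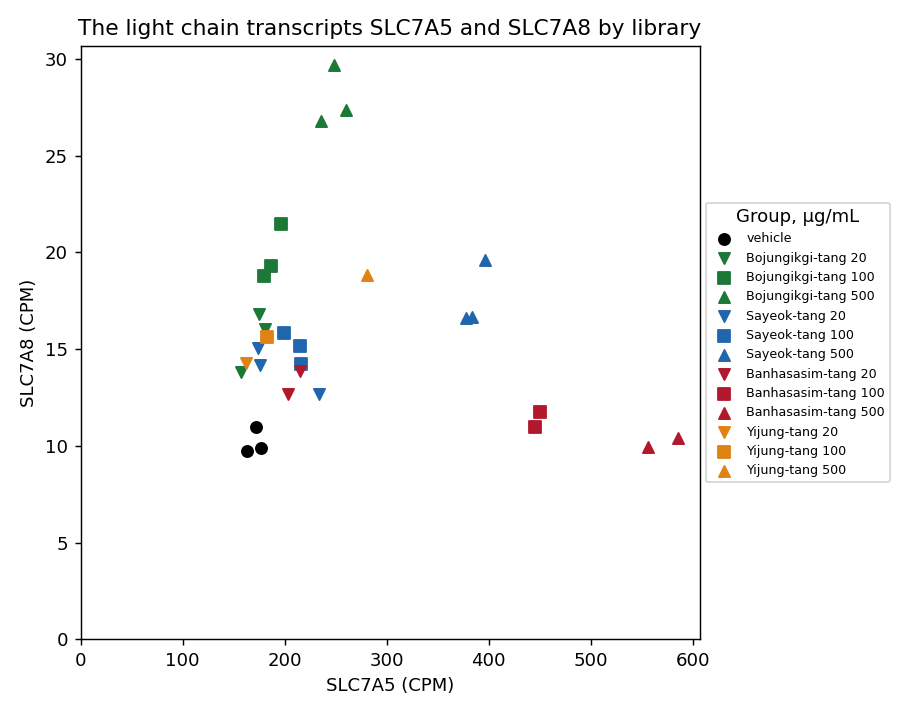
CPM of SLC7A5 (horizontal axis) against CPM of SLC7A8 (vertical axis), 1 point per library, with colour for the formula and shape for the dose in µg/mL. Bojungikgi-tang libraries climb along the SLC7A8 axis to 29.7 CPM, Banhasasim-tang libraries spread along the SLC7A5 axis to 585 CPM, and Sayeok-tang at 500 µg/mL lies between them.

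SLC43A1 (LAT3, ENSG00000149150, chr11:57484534-57515786, minus strand), a leucine carrier that works without SLC3A2, was the least abundant of the 10, with 35 to 141 counts per library. It read 1.34, 1.31 and 1.22 CPM in vehicle, 2.27, 2.46 and 2.23 CPM with Sayeok-tang at 500 µg/mL and 2.53 and 2.63 CPM with Banhasasim-tang at 500 µg/mL. From 20 to 500 µg/mL it rose by 0.63 ± 0.13 and 0.72 ± 0.15 on the log2 scale with these 2 formulas. With Bojungikgi-tang the difference was 0.23 ± 0.12 with overlapping libraries, and it passed the test without replicate 2 at 20 µg/mL (0.40).

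Among the exchangers of small neutral amino acids, SLC1A5 (ASCT2, ENSG00000105281, chr19:46774883-46788594, minus strand), a glutamine exchanger, read 263, 275 and 285 CPM in vehicle. At 500 µg/mL it read 342, 336 and 315 CPM with Bojungikgi-tang, 439, 437 and 439 CPM with Sayeok-tang and 545 and 586 CPM with Banhasasim-tang, against 290 to 316 CPM over these formulas at 20 µg/mL. Only with Bojungikgi-tang did the libraries at 500 µg/mL come near those at 20 µg/mL, the gap being from 301 to 315 CPM. The rise was 0.14 ± 0.04 (edgeR adjusted p = 0.0128), 0.54 ± 0.04 (edgeR adjusted p = 3.43e-11) and 0.85 ± 0.05 (edgeR adjusted p = 4.09e-14) on the log2 scale.

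SLC1A4 (ASCT1, ENSG00000115902, chr2:64988477-65023865, plus strand), an exchanger of serine and alanine, read 28.2, 28.8 and 29.2 CPM in vehicle. It reached 33.9, 33.4 and 33.6 CPM with Bojungikgi-tang, 49.2, 48.7 and 50.0 CPM with Sayeok-tang and 86.5 and 86.7 CPM with Banhasasim-tang at 500 µg/mL. Its rise from 20 to 500 µg/mL was 0.16 ± 0.05 (edgeR adjusted p = 0.0147), 0.61 ± 0.04 (edgeR adjusted p = 3.74e-11) and 1.42 ± 0.05 (edgeR adjusted p = 6.65e-18) on the log2 scale. The Bojungikgi-tang rises of SLC1A5 and SLC1A4 were small and did not pass without some libraries of that formula, for instance without replicate 1 at 500 µg/mL (edgeR adjusted p = 0.083 and 0.053).

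The sodium-coupled glutamine carriers SLC38A1 and SLC38A2, close neighbours on chromosome 12, behaved differently. SLC38A1 (SNAT1, ENSG00000111371, chr12:46183063-46270017, minus strand) read 141, 135 and 130 CPM in vehicle and 121 and 126 CPM with Banhasasim-tang at 20 µg/mL, then 206 and 214 CPM at 100 µg/mL and 323 and 304 CPM at 500 µg/mL. With Sayeok-tang it read 126, 110 and 106 CPM at 20 µg/mL and 184, 180 and 184 CPM at 500 µg/mL. Its log2 rise from 20 to 500 µg/mL was 1.35 ± 0.08 with Banhasasim-tang (edgeR adjusted p = 7.83e-13), 0.68 ± 0.07 with Sayeok-tang (edgeR adjusted p = 2.33e-08) and 0.20 ± 0.07 with Bojungikgi-tang (edgeR adjusted p = 0.041). The Bojungikgi-tang value was 0.11 without replicate 2 at 20 µg/mL, a library at 92.8 CPM beside 115 and 115 CPM (edgeR adjusted p = 0.23), and the call was also lost without any of the 3 libraries at 500 µg/mL (0.19 to 0.21).

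SLC38A2 (SNAT2, ENSG00000134294, chr12:46358189-46372867, minus strand), which is known in other cells as the carrier induced when amino acids run low, hardly moved with dose. Vehicle libraries read 498, 469 and 472 CPM, and every treated library of all 4 formulas lay below them, between 328 and 433 CPM. From 20 to 500 µg/mL the log2 difference was -0.03 ± 0.05 with Bojungikgi-tang and -0.03 ± 0.05 with Sayeok-tang, neither called, and 0.16 ± 0.06 with Banhasasim-tang (edgeR adjusted p = 0.0352). The last call was lost without replicate 2 at either of its doses (0.12 and 0.11), and its value was 0.09 and not called with library size scaling. Against vehicle SLC38A2 was lower in all 9 comparisons, by -0.46 to -0.19 on the log2 scale, and the vehicle is a label set of its own. The value for 500 µg/mL of Banhasasim-tang was -0.15 and not called without its replicate 3, and library size scaling moved it from -0.19 to -0.32 and that for 100 µg/mL from -0.27 to -0.42.

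SLC7A1 (CAT1, ENSG00000139514, chr13:29509410-29595688, minus strand), the carrier that brings in the cationic amino acids arginine and lysine, read 168, 164 and 162 CPM in vehicle. With Bojungikgi-tang it read 146, 119 and 144 CPM at 20 µg/mL and 131, 130 and 125 CPM at 500 µg/mL, and with Sayeok-tang 144, 145 and 134 CPM and then 148, 139 and 154 CPM, so that the doses overlapped in both formulas. With Banhasasim-tang it rose from 150 and 157 CPM to 205 and 205 CPM, a log2 fold change of 0.42 ± 0.07 (edgeR adjusted p = 4.41e-05). The edgeR differences for the other 2 formulas, -0.09 ± 0.06 and 0.06 ± 0.06, were not called. Without replicate 2 of Bojungikgi-tang at 20 µg/mL, the library at 119 CPM, the former was -0.17 and was called lower (edgeR adjusted p = 0.0226).

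SLC6A9 (GLYT1, ENSG00000196517, chr1:43991500-44031467, minus strand), the glycine carrier that in the brain is known from astrocytes, read 28.6, 29.6 and 32.9 CPM in vehicle. It reached 43.8, 45.3 and 39.4 CPM with Bojungikgi-tang, 65.0, 65.9 and 66.6 CPM with Sayeok-tang and 93.3 and 103 CPM with Banhasasim-tang at 500 µg/mL. No library at 500 µg/mL overlapped the 29.5 to 37.6 CPM seen over these formulas at 20 µg/mL. The rise was 0.41 ± 0.06 (edgeR adjusted p = 6.66e-06), 0.99 ± 0.06 (edgeR adjusted p = 2.78e-13) and 1.44 ± 0.07 (edgeR adjusted p = 9.62e-16) on the log2 scale.

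**Figure D2:**
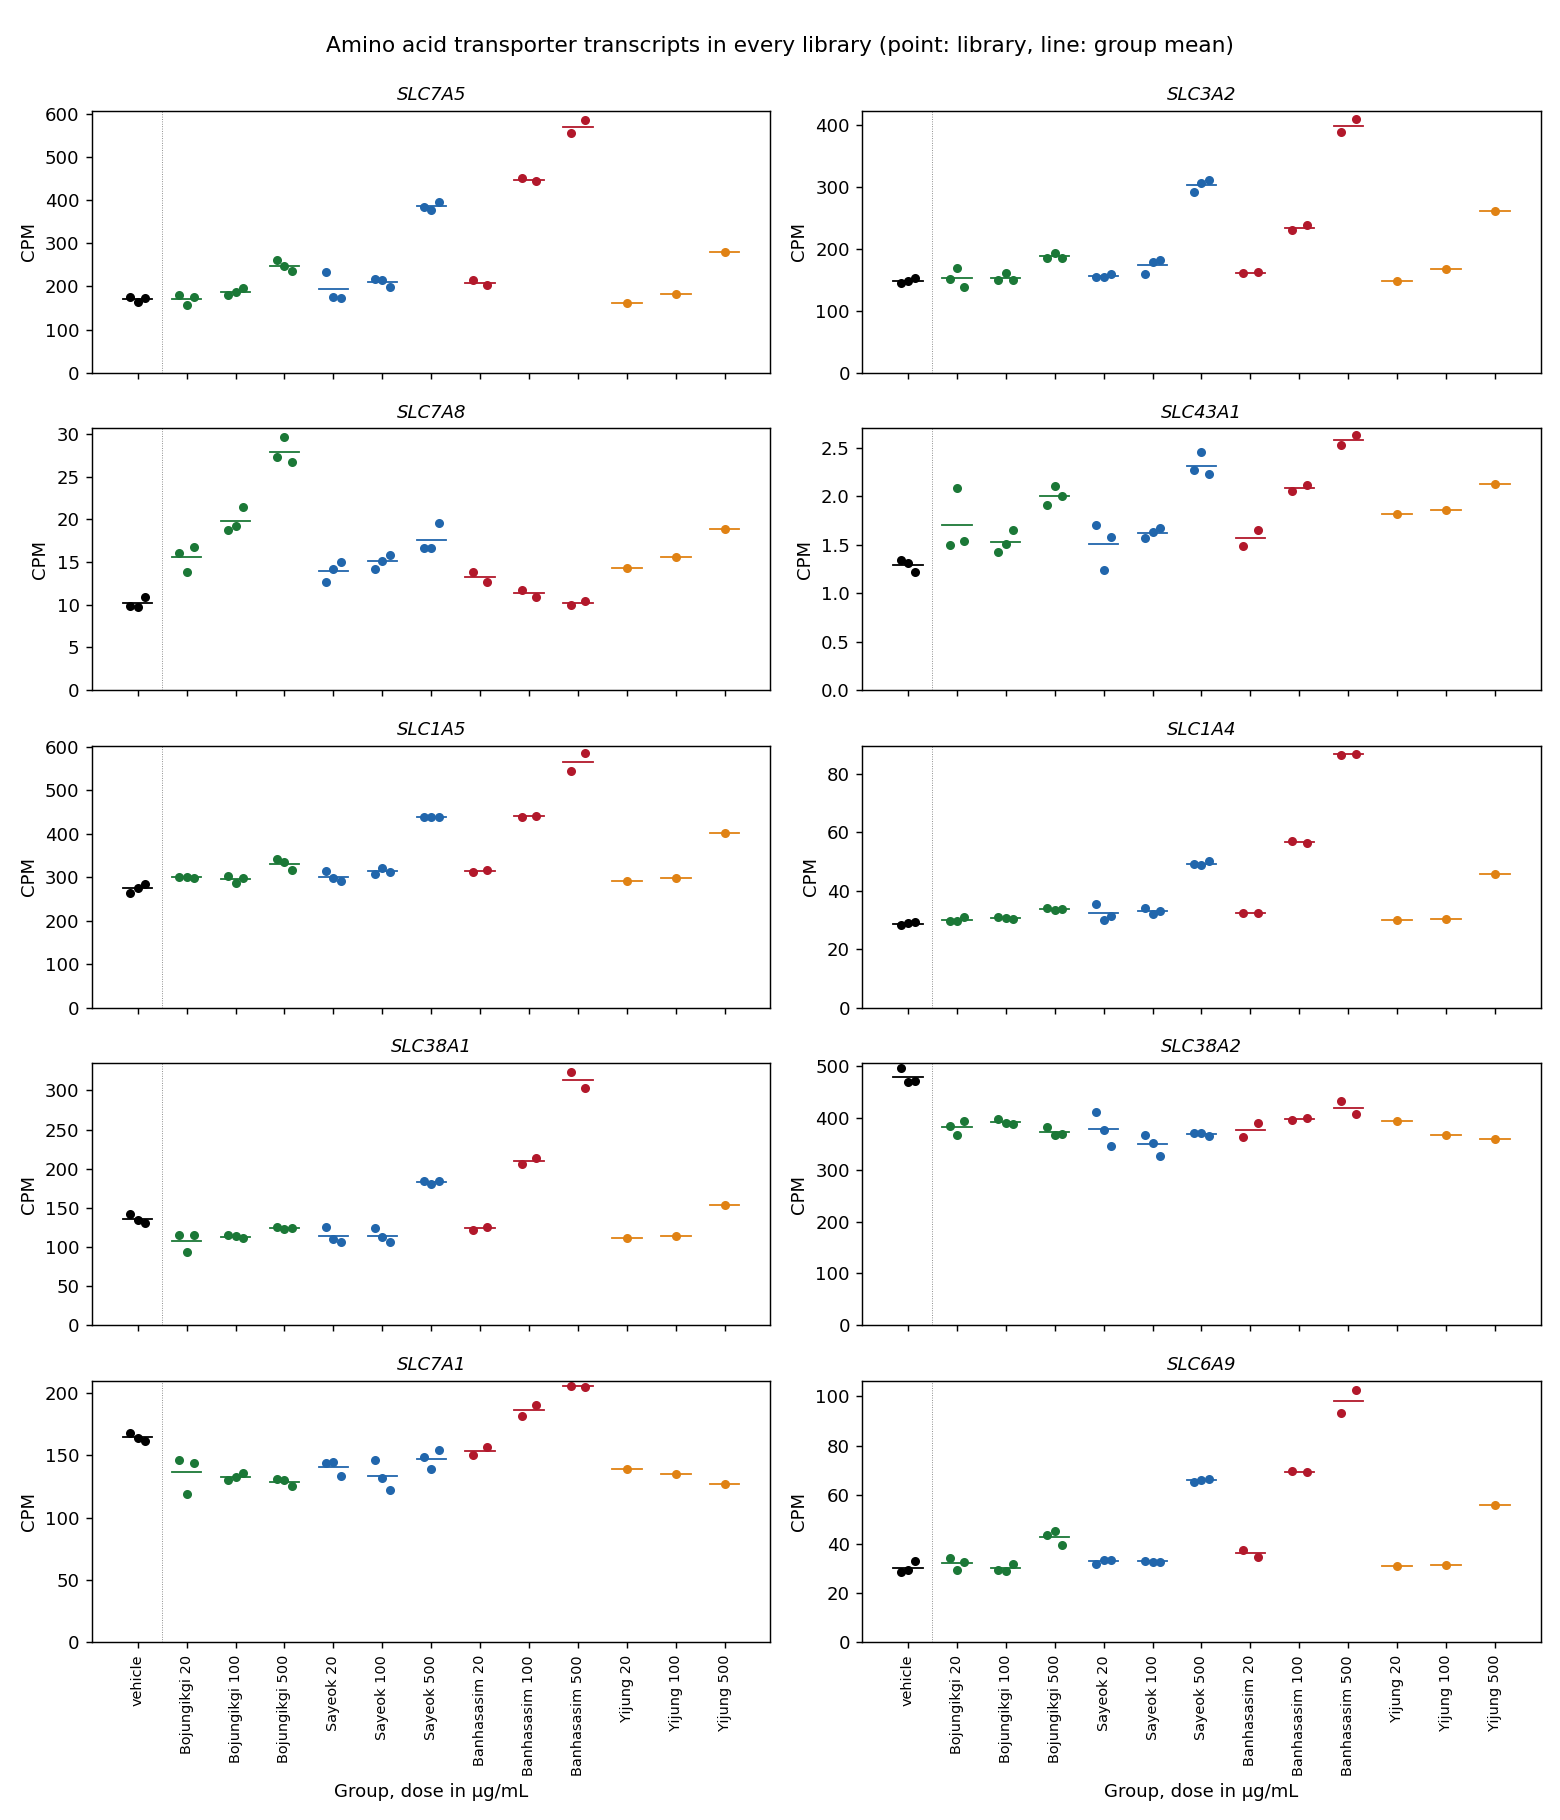
CPM of each carrier (vertical axes, from 0) in every library, by group and dose in µg/mL, with the group mean as a line. In 8 of 10 panels the 500 µg/mL libraries stand in the order Banhasasim-tang, Sayeok-tang, Bojungikgi-tang from high to low without overlap. The share of all genes in this order was not counted, and Banhasasim-tang carries another label set than Sayeok-tang and Bojungikgi-tang. SLC7A8 shows the opposite order, and SLC38A2 stays under the vehicle libraries throughout.

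From 20 to 500 µg/mL, 7 of the 10 carriers rose and none fell with Bojungikgi-tang, where 15.5% of all genes were called, 6.64% as higher and 8.9% as lower. Without replicate 2 at 20 µg/mL, SLC7A1 was called lower there (-0.17). With Sayeok-tang 8 rose and none fell, against 20.5% of all genes called, 9.89% higher and 10.6% lower. With Banhasasim-tang 9 rose and SLC7A8 fell, against 43.7% of all genes called, 22.3% higher and 21.3% lower. The median log2 fold change of the 10 was 0.21, 0.62 and 1.08 for these formulas, while that of all genes tested lay between -0.00072 and 0.0067. In the Bojungikgi-tang comparison 4 of the 7 calls (SLC7A8, SLC7A5, SLC3A2 and SLC6A9) were kept under every alternative run, as were all 8 with Sayeok-tang and 8 of 10 with Banhasasim-tang. Scaling by library size in place of TMM turned the split of all called genes from 1304 higher and 1747 lower to 2329 and 1023 for Bojungikgi-tang, from 1942 and 2089 to 2639 and 1563 for Sayeok-tang, and from 4387 and 4185 to 3359 and 5184 for Banhasasim-tang, and reversed no call of a carrier.

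Between 100 and 20 µg/mL, 7 carriers rose with Banhasasim-tang and none fell, where 6.6% of all genes were called, 3.64% higher and 2.96% lower. They were SLC7A5 (1.10 ± 0.10), SLC6A9 (0.94 ± 0.07), SLC1A4 (0.81 ± 0.05), SLC38A1 (0.77 ± 0.08), SLC3A2 (0.54 ± 0.07), SLC1A5 (0.49 ± 0.05) and SLC7A1 (0.28 ± 0.07), on the log2 scale. SLC7A1 was lost when any of the 4 libraries was left out (0.24 to 0.31) and with library size scaling (0.19). SLC7A8 differed by -0.23 ± 0.10, not called, and was called lower with library size scaling (-0.32, edgeR adjusted p = 0.0333) and with the compared groups alone (-0.23, edgeR adjusted p = 0.0453). The total of called genes fell from 1296 to between 656 and 691 when any of these 4 libraries was left out. With library size scaling this comparison called 362 genes higher and 2019 lower against 714 and 582 with TMM. No carrier was called between these doses of Sayeok-tang, where 6 genes in all were called by edgeR (0.0306%, with 0.0204% higher and 0.0102% lower), 2 carriers and 1203 genes had an unadjusted p under 0.05, and DESeq2 called 31 genes and none of the carriers. With library size scaling 4 genes were higher and 0 lower, against 4 and 2 with TMM. The nearest to a call was SLC3A2, whose libraries at 100 µg/mL (160, 180 and 182 CPM) lay just above those at 20 µg/mL (155, 155 and 160 CPM), with a log2 difference of 0.15 ± 0.05.

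**Figure D3:**
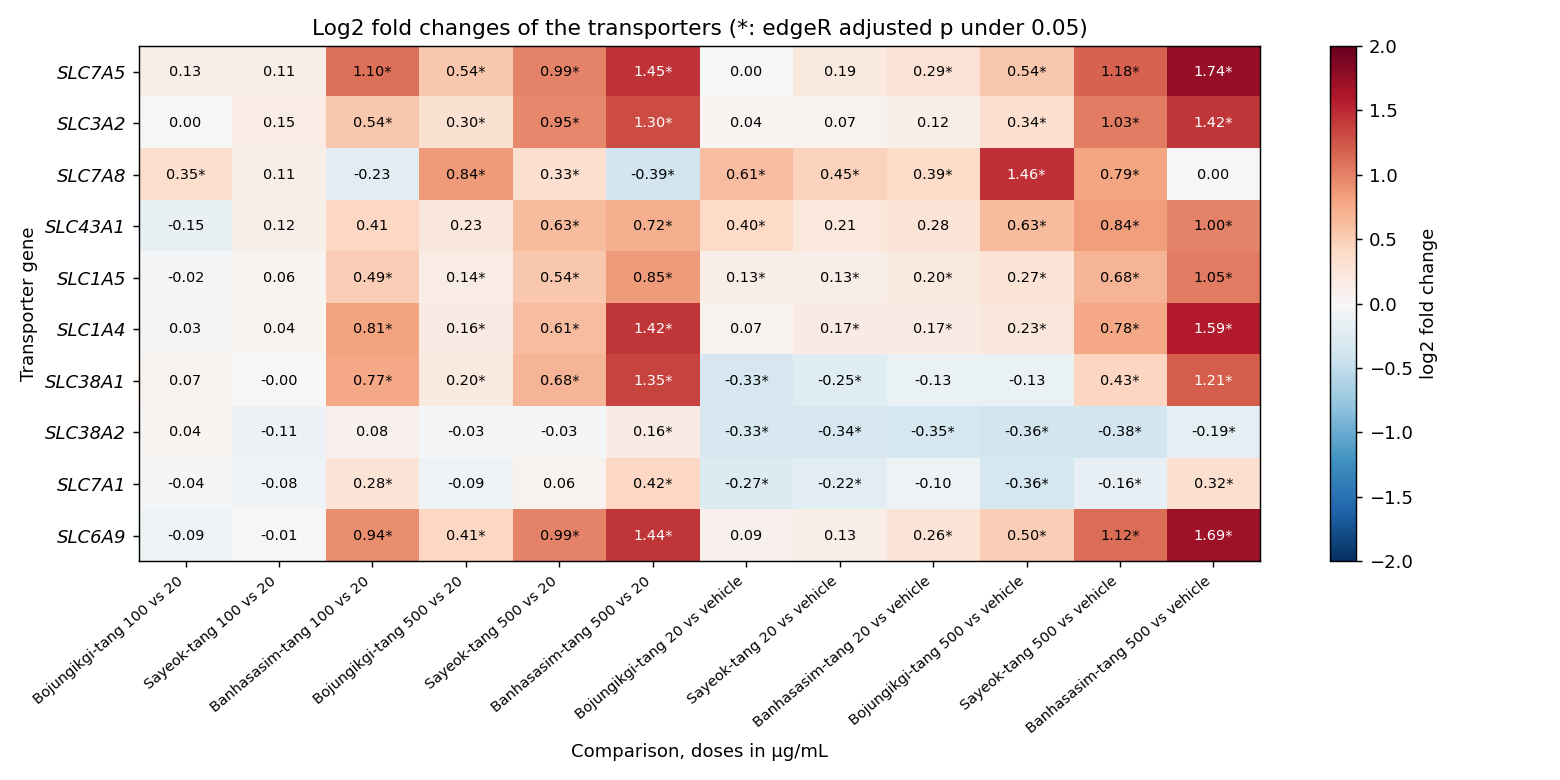
Log2 fold changes of the 10 carriers (rows) in 12 comparisons (columns, doses in µg/mL), coloured from blue (lower) to red (higher) and starred where the edgeR adjusted p is under 0.05. SLC7A8 runs from 0.84 with Bojungikgi-tang to -0.39 with Banhasasim-tang between 500 and 20 µg/mL, while SLC7A5 runs from 0.54 to 1.45.

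The dose responses themselves were compared between formulas as a difference of the 500 against 20 µg/mL log2 fold changes. Sayeok-tang exceeded Bojungikgi-tang in 6 carriers and fell short in SLC7A8, with 4.49% of all genes called, 2.12% higher and 2.37% lower. Banhasasim-tang exceeded Bojungikgi-tang in 7 and Sayeok-tang in 7, with SLC7A8 lower in both, against 31.8% of all genes called (16.5% higher, 15.3% lower) and 24.4% (12.2% higher, 12.2% lower). SLC7A8 differed by -0.51 ± 0.11 between Sayeok-tang and Bojungikgi-tang (edgeR adjusted p = 0.00402), by -1.23 ± 0.13 between Banhasasim-tang and Bojungikgi-tang (edgeR adjusted p = 1.33e-08) and by -0.72 ± 0.13 between Banhasasim-tang and Sayeok-tang (edgeR adjusted p = 0.000108). SLC1A4 showed the widest gap upward, 1.26 ± 0.07 between Banhasasim-tang and Bojungikgi-tang (edgeR adjusted p = 7.87e-14). SLC38A2 and SLC43A1 were called in none of the 3 differences, with edgeR differences of 0.00 to 0.19 and 0.09 to 0.49, and both had unadjusted p values under 0.05 in at least 1 of them. SLC38A2 passed in the differences to Bojungikgi-tang and Sayeok-tang without some single libraries at 20 µg/mL (0.21 to 0.25), and SLC43A1 in that to Bojungikgi-tang without its replicate 1 or 3 at 20 µg/mL (0.58 and 0.56). The SLC7A5 difference of Sayeok-tang and Bojungikgi-tang (0.45 ± 0.11) was not called without replicate 3 of Bojungikgi-tang at 500 µg/mL (0.42) or with the compared groups alone. Between Banhasasim-tang and Sayeok-tang, SLC7A5 was not called with the compared groups alone (0.45) nor SLC7A1 with library size scaling (0.25), and SLC1A5 moved from 0.31 to 0.20 with that scaling. These 3 differences share groups with each other, and library size scaling moved the median of all genes by -0.12 and -0.11 in the 2 that involve Banhasasim-tang, with splits of 1929 higher and 4625 lower (3233 and 3004 with TMM) and 1429 and 3841 (2391 and 2400).

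Within label set 15, Bojungikgi-tang and Sayeok-tang could be compared directly at 500 µg/mL, where 12.7% of all genes were called, 6.12% higher and 6.54% lower. SLC7A8 was higher with Bojungikgi-tang by 0.67 ± 0.07 (edgeR adjusted p = 2.2e-07), and 7 carriers were lower, from SLC3A2 at -0.69 ± 0.05 (edgeR adjusted p = 4.13e-10) and SLC7A5 at -0.64 ± 0.08 (edgeR adjusted p = 2.86e-06) to SLC7A1 at -0.20 ± 0.06 (edgeR adjusted p = 0.0327). The SLC7A1 call was lost in 5 of the 6 fits that left out a library of these groups, with -0.21 to -0.16 there. SLC38A2 read 383, 368 and 370 CPM against 372, 372 and 366 CPM, and differed by 0.01 ± 0.05.

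Against the vehicle, 500 µg/mL gave 7 higher and 2 lower carriers with Bojungikgi-tang, where 34.6% of all genes were called, 16.4% higher and 18.2% lower. Sayeok-tang gave 8 and 2, against 38.3% of all genes, 18.8% higher and 19.4% lower. Banhasasim-tang gave 8 and 1, against 51% of all genes, 25.9% higher and 25.1% lower. The shared vehicle libraries and the separate label set apply to all of these. SLC7A5 was higher by 0.54 ± 0.08, 1.18 ± 0.08 and 1.74 ± 0.09 on the log2 scale, and SLC7A8 by 1.46 ± 0.08 and 0.79 ± 0.09, whereas it was at 0.00 ± 0.10 with Banhasasim-tang. SLC38A2 and SLC7A1 were the lower carriers with Bojungikgi-tang and Sayeok-tang, and SLC38A2 alone with Banhasasim-tang. The SLC7A1 call with Sayeok-tang (-0.16 ± 0.06) was lost with library size scaling (-0.14), with the stricter filter (-0.15), and without any vehicle library or replicate 1 or 2 at 500 µg/mL (-0.17 to -0.12). The SLC38A2 call with Banhasasim-tang was lost without its replicate 3 (-0.15, edgeR adjusted p = 0.0837). At 100 µg/mL, 1 carrier was higher and 3 lower with Bojungikgi-tang (22.1% of all genes called, 9.88% higher and 12.3% lower). The counts were 5 and 3 with Sayeok-tang (29.2%, 14.3% higher and 14.9% lower) and 7 and 1 with Banhasasim-tang (28.1%, 14.4% higher and 13.7% lower). Already at 20 µg/mL, 3 were higher and 3 lower with Bojungikgi-tang (26.2% of all genes called, 12.4% higher and 13.8% lower). The counts were 3 and 3 with Sayeok-tang (25.3%, 12% higher and 13.4% lower) and 5 and 1 with Banhasasim-tang (18.3%, 8.89% higher and 9.39% lower).

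At the lowest dose several carriers differed from vehicle. SLC7A8 was higher at 20 µg/mL by 0.61 ± 0.09, 0.45 ± 0.09 and 0.39 ± 0.10 with Bojungikgi-tang, Sayeok-tang and Banhasasim-tang, and in the Yijung-tang library at 14.3 CPM against at most 10.9 CPM in vehicle. SLC38A1 was lower by -0.33 ± 0.07 and -0.25 ± 0.07 with Bojungikgi-tang and Sayeok-tang. It rose with the dose of Bojungikgi-tang, and yet its 122 to 125 CPM at 500 µg/mL lay below the 130 to 141 CPM of vehicle. Of the 6 carriers called at 20 µg/mL, calls kept under every alternative were 4 with Bojungikgi-tang, 2 with Sayeok-tang (SLC7A8 and SLC38A2) and 2 with Banhasasim-tang (SLC1A5 and SLC38A2). Single libraries moved 3 of the values most: SLC43A1 with Bojungikgi-tang went from 0.40 to 0.23 and SLC7A1 from -0.27 to -0.17 without replicate 2, and SLC1A4 with Sayeok-tang from 0.17 to 0.09 without replicate 1. With Banhasasim-tang at 20 µg/mL against vehicle, 6 carriers and 3589 genes were called, against 2 and 1183 without its replicate 2, 4 and 2145 without its replicate 3, and 4 and 2256 without vehicle replicate 1. Library size scaling moved the median of all genes by -0.13 at 500 µg/mL and by -0.15 at 100 µg/mL of Banhasasim-tang against vehicle, and its splits were 3507 higher and 6775 lower (5075 and 4931 with TMM), 1278 and 6229 (2819 and 2690) and 1107 and 3088 (1746 and 1843) at 500, 100 and 20 µg/mL.

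Yijung-tang had 1 library per dose, so its values have no test. SLC7A5 read 162, 183 and 281 CPM at 20, 100 and 500 µg/mL, SLC3A2 149, 168 and 262 CPM, and SLC6A9 31.2, 31.6 and 55.7 CPM. At 500 µg/mL 8 carriers lay above and 2 (SLC7A1 and SLC38A2) below the range of the vehicle libraries. Already at 20 µg/mL only SLC3A2 and SLC6A9 lay within that range. The median log2 ratio at 500 µg/mL was 0.69 to the vehicle mean and 0.47 to the Yijung-tang library at 20 µg/mL. Its level at 500 µg/mL lay between the Bojungikgi-tang and Sayeok-tang libraries for 7 carriers, and SLC7A8 at 18.8 CPM lay within the Sayeok-tang range. The shares of all genes that lay in these ways were not counted. The vehicle and both of these formulas carry other label sets than Yijung-tang. Banhasasim-tang shares its label set, and at 500 µg/mL had means of 571, 399 and 98.0 CPM for SLC7A5, SLC3A2 and SLC6A9. For SLC7A8 the mean was 10.2 CPM there (n = 2).

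Per kilobase of annotated exons, which makes carriers comparable with each other, the vehicle levels ranged widely. SLC1A5 came to 82.2 ± 3.24 CPM per kb and SLC38A2 to 72.7 ± 2.38, followed by SLC7A5 at 35.9 ± 1.46, SLC3A2 at 28.7 ± 0.772 and SLC7A1 at 21.4 ± 0.430 (mean ± SD, n = 3). SLC38A1 at 13.5 ± 0.562, SLC6A9 at 5.89 ± 0.437, SLC1A4 at 4.14 ± 0.0687, SLC7A8 at 1.70 ± 0.11 and SLC43A1 at 0.366 ± 0.0179 made up the lower part. Neighbours in this order differed by more than their SDs, but the order depended on the length used. With the longest transcript in place of all exons, SLC38A2 came first at 98.1 and SLC1A5 next at 95.1, and SLC3A2, at 67.0, passed SLC7A5. At 500 µg/mL of Banhasasim-tang SLC1A5 stood at 170 ± 8.71 and SLC7A5 at 120 ± 4.40 CPM per kb, and SLC38A2, at 63.7 ± 2.61, stood below both (n = 2).

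**Figure D4:**
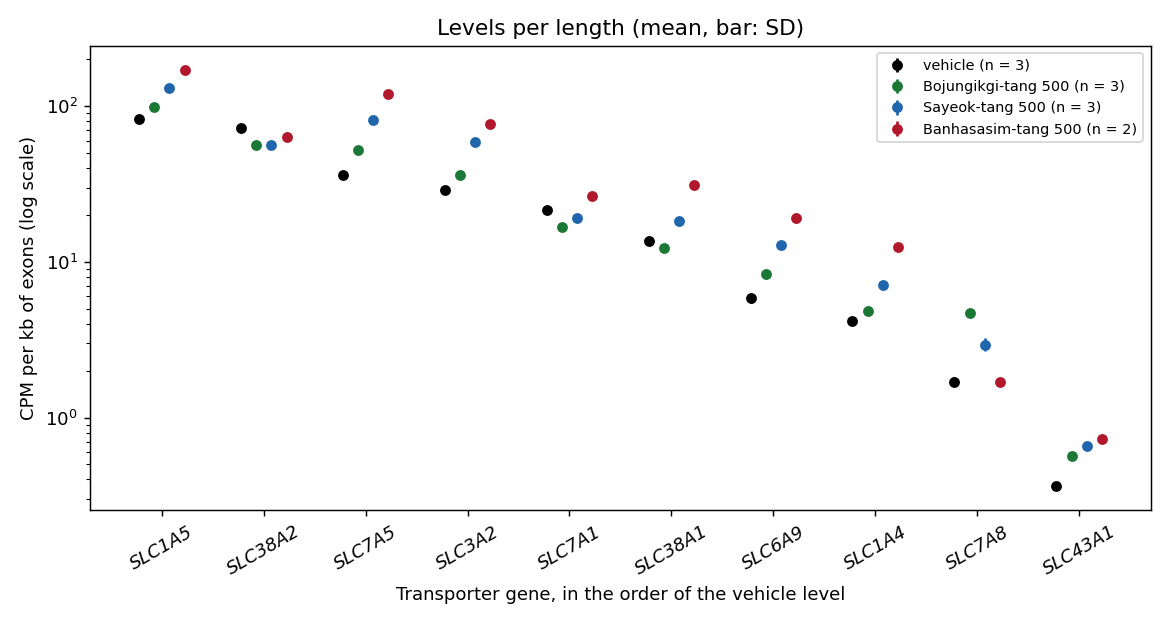
CPM per kilobase of annotated exons (vertical log axis) for the 10 carriers in the order of their vehicle level, as mean with SD bars for vehicle (n = 3) and for 500 µg/mL of Bojungikgi-tang (n = 3), Sayeok-tang (n = 3) and Banhasasim-tang (n = 2). SLC7A5 stands at 35.9 in vehicle and at 120 with Banhasasim-tang, and SLC38A2 at 72.7 and 63.7. The vehicle is a label set of its own, and SLC38A2 did not fall with the dose of Banhasasim-tang (means of 376 CPM at 20 µg/mL and 420 CPM at 500 µg/mL).

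Across the 13 group means, the carriers that rose with all formulas ran closely together. SLC7A5 correlated with SLC6A9 at 0.98, with SLC1A5 at 0.98, with SLC1A4 at 0.97 and with SLC3A2 at 0.94 (Pearson r of mean log2 CPM over 13 groups that share label sets and depth, given as a description). SLC7A8 correlated with SLC7A5 at -0.21 and with SLC7A1 at -0.79. Among the 11291 genes whose mean reached 5 CPM, those most like SLC7A5 were ALDH1L2, the mitochondrial formyltetrahydrofolate dehydrogenase, at 0.99, SLC6A9 and ASNS, asparagine synthetase, both at 0.98. Those most like SLC3A2 were GNPDA1, a glucosamine-6-phosphate deaminase, and WASHC2C, a subunit of the endosomal WASH complex, both at 0.99, and GALNT12, which starts mucin-type O-glycans, at 0.99. SLC7A8 came closest to PCSK1, a prohormone convertase, and to APOL3 and BTN3A2, both known as interferon-inducible, all at 0.94.

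Other plasma membrane amino acid carriers did not show the same counts between 500 and 20 µg/mL. Both lists were chosen with earlier results of these data known, so the contrast is a description and no test. Over all genes 15.5%, 20.5% and 43.7% were called with Bojungikgi-tang, Sayeok-tang and Banhasasim-tang. Of 24 listed, 12 passed the filter, and 2 rose and 2 fell with Bojungikgi-tang, 2 rose and 1 fell with Sayeok-tang, and 1 rose and 4 fell with Banhasasim-tang, with medians of 0.01, -0.05 and -0.10. SLC38A4, a system A relative of SLC38A2, fell by -0.87 ± 0.07, -0.84 ± 0.07 and -1.66 ± 0.09, and SLC6A15, a neutral amino acid carrier, rose by 0.49 ± 0.11, 0.45 ± 0.12 and 0.56 ± 0.14. SLC6A6, the taurine carrier, rose with Bojungikgi-tang (0.27 ± 0.08), SLC43A2 (LAT4) rose with Sayeok-tang (0.26 ± 0.05), and SLC38A5 (SNAT5) fell with Bojungikgi-tang (-0.37 ± 0.10).

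Of 6 cystine and glutamate carriers, 4 were tested, and 2 rose with Bojungikgi-tang, while 1 rose and 2 fell with Sayeok-tang and with Banhasasim-tang. SLC7A11, the cystine light chain that also pairs with SLC3A2, rose by 1.02 ± 0.09, 1.31 ± 0.09 and 1.83 ± 0.11. SLC1A3, the glial glutamate carrier, differed by -0.06 ± 0.05 with Bojungikgi-tang, not called, and fell by -0.49 ± 0.05 with Sayeok-tang and -1.90 ± 0.07 with Banhasasim-tang. SLC1A1, the neuronal and epithelial glutamate carrier, rose by 0.18 ± 0.05 with Bojungikgi-tang and fell by -0.27 ± 0.05 with Sayeok-tang.

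The amino acid stress response, a list of 21 genes all tested, had 8 higher and 1 lower with Bojungikgi-tang, 16 and 1 with Sayeok-tang, and 17 and 1 with Banhasasim-tang, with medians of 0.16, 0.60 and 1.27 against 0.21, 0.62 and 1.08 for the carriers. ATF4 differed by 0.16 ± 0.07 with Bojungikgi-tang, not called, and rose by 0.84 ± 0.07 and 1.44 ± 0.08 with the other two. ASNS rose by 0.73 ± 0.06, 1.66 ± 0.06 and 2.45 ± 0.07, and TRIB3, a pseudokinase that restrains ATF4, by 0.52 ± 0.06, 1.73 ± 0.06 and 3.48 ± 0.07. CHAC1, which degrades glutathione, led the list with Sayeok-tang at 1.80 ± 0.09. With Bojungikgi-tang NUPR1, a stress-induced chromatin factor, reached 0.71 ± 0.08 and DDIT4, an inhibitor of mTORC1, 0.57 ± 0.07. The lower genes were VLDLR with Bojungikgi-tang (-0.18 ± 0.04) and STC2, a secreted glycoprotein, with Sayeok-tang (-0.27 ± 0.09), and ATF5, a relative of ATF4, with Banhasasim-tang (-0.18 ± 0.07).

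Genes of leucine and arginine sensing by mTORC1, 32 tested, gave 3 higher and 1 lower, 8 and 1, and 14 and 4 in the same order of formulas, with medians of 0.05, 0.11 and 0.15. Over all genes 15.5%, 20.5% and 43.7% were called in these comparisons. RRAGD, a Rag GTPase, rose by 1.37 ± 0.21 with Sayeok-tang and differed by 0.11 ± 0.22 with Bojungikgi-tang, not called. FLCN and RRAGC, the folliculin GAP and its substrate, rose by 0.49 ± 0.05 and 0.46 ± 0.04 with Sayeok-tang, and RPTOR, the mTORC1 scaffold, fell by -0.15 ± 0.05. With Bojungikgi-tang SESN3 (0.42 ± 0.09), CASTOR2 (0.37 ± 0.11) and RRAGB (0.23 ± 0.06) rose and SEH1L fell (-0.13 ± 0.04). The same SESN3 and CASTOR2 fell with Banhasasim-tang, by -0.52 ± 0.12 and -0.56 ± 0.16, as did RPTOR (-0.23 ± 0.06). Of the other genes named here, RRAGD (2.80 ± 0.24), RRAGC (0.68 ± 0.05), FLCN (0.43 ± 0.06) and SEH1L (0.15 ± 0.05) rose with Banhasasim-tang. RRAGB was not called (0.11 ± 0.08).

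Lysosomal and mitochondrial amino acid carriers, 18 of 19 tested, gave 2 higher and 1 lower with Bojungikgi-tang, 8 and 1 with Sayeok-tang, and 5 and 8 with Banhasasim-tang, beside 15.5%, 20.5% and 43.7% of all genes called. CTNS, the lysosomal cystine exporter, rose in all 3 formulas (0.22 ± 0.06, 0.49 ± 0.05 and 0.45 ± 0.07), and SLC38A9, the lysosomal arginine sensor, rose by 0.18 ± 0.06 with Bojungikgi-tang. Sayeok-tang also raised SLC25A18, a mitochondrial glutamate carrier (0.40 ± 0.11), which fell with Banhasasim-tang (-0.78 ± 0.15), and SLC38A7, the lysosomal glutamine exporter (0.39 ± 0.05), and lowered the sideroflexin SFXN3 (-0.18 ± 0.06). SLC25A22, also a mitochondrial glutamate carrier, fell with Bojungikgi-tang (-0.17 ± 0.04).

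The sodium pump, which maintains the gradient used by the SLC38 and SLC6 carriers, gave 1 higher and 1 lower of 6 tested with Bojungikgi-tang and 0 higher and 1 lower with Sayeok-tang and with Banhasasim-tang. ATP1B1, its beta-1 subunit, fell by -0.22 ± 0.04, -0.41 ± 0.04 and -1.297 ± 0.055, and ATP1B2 rose by 0.77 ± 0.25 with Bojungikgi-tang. Of 8 genes of carrier turnover at the membrane, which are ubiquitin ligases, arrestin-domain adaptors and the deubiquitinase USP9X, 2 rose and 2 fell, 1 rose and 2 fell, and 2 rose and 1 fell in the same order. TXNIP, an arrestin-domain protein that acts on glucose carriers, fell by -1.09 ± 0.10 with Sayeok-tang, and NEDD4, a ubiquitin ligase, fell by -0.21 ± 0.06, -0.26 ± 0.06 and -0.42 ± 0.07. ARRDC3, an adaptor of NEDD4 ligases, rose by 0.28 ± 0.04 with Bojungikgi-tang and 0.13 ± 0.04 with Sayeok-tang. ARRDC2 rose (0.26 ± 0.07) and NEDD4L fell (-0.19 ± 0.05) with Bojungikgi-tang. All calls over these lists are from edgeR with adjustment over all genes, and no list was tested as a set. Of all genes 15.5% were called with Bojungikgi-tang, 20.5% with Sayeok-tang and 43.7% with Banhasasim-tang between 500 and 20 µg/mL.

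**Figure D5:**
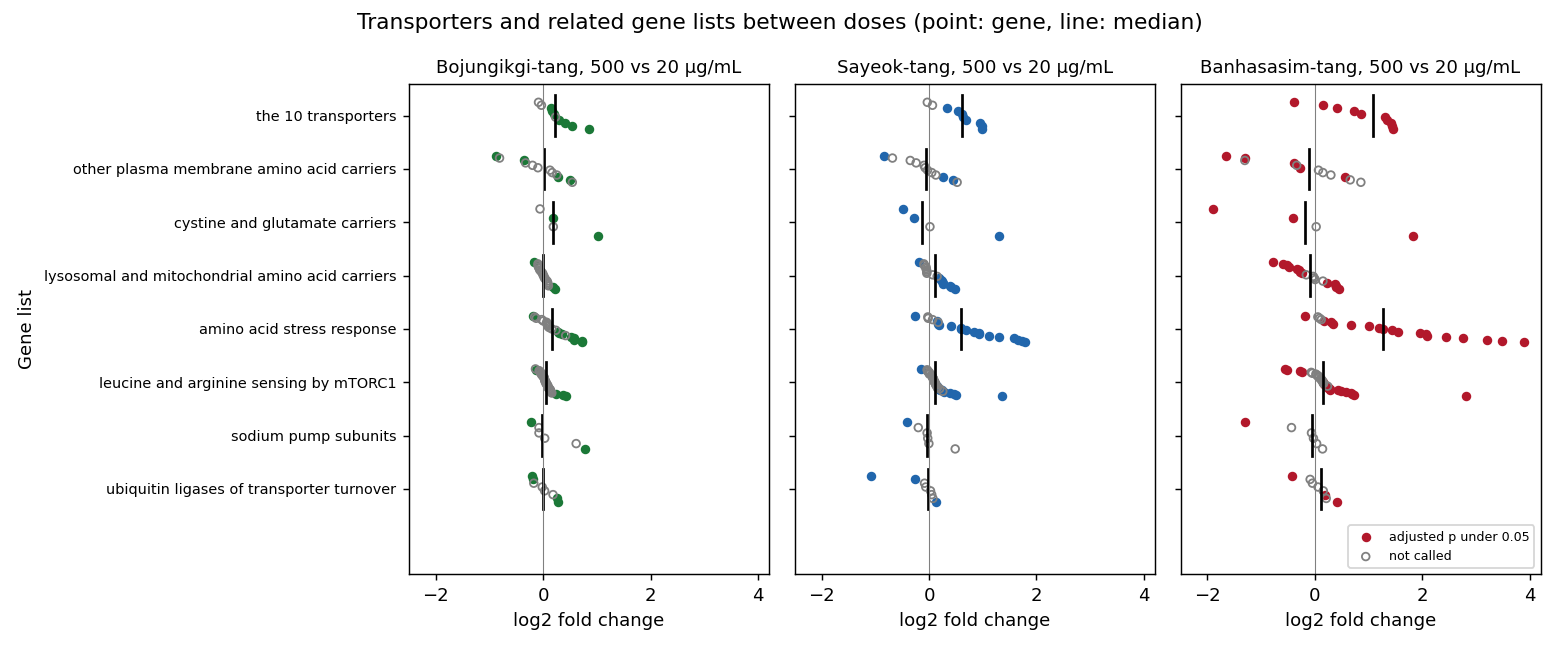
Log2 fold change between 500 and 20 µg/mL (horizontal axes) for the genes of each list (rows) and each formula (panels), filled where the edgeR adjusted p is under 0.05, with the median as a black line. The medians of the 10 carriers (0.21, 0.62 and 1.08) and of the amino acid stress response (0.16, 0.60 and 1.27) lie to the right of 0, whereas that of the other plasma membrane carriers stays between -0.10 and 0.01. Carriers and lists were chosen with earlier results of these data known.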

How the data were processed

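RNA of 30 SW1783 libraries was analysed from the table of RSEM expected counts per Ensembl gene that the authors deposited. Per the submitters' processing notes, FastQC 0.11.9, Trim Galore 0.6.5, STAR 2.7.3a, RSEM 1.3.3 and the build hg38/GRCh38 were used, and their roles and the annotation release are not given in the sources used here. Between 9.36 and 11.1% of the values in a library were not whole numbers, and all were rounded.

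One edgeR 4.0.16 quasi-likelihood model (R 4.3.3, robust) of 13 group means was fitted to all 30 libraries after TMM scaling and the filter filterByExpr by group, and 19 comparisons were tested, each with Benjamini-Hochberg adjustment over 19632 genes at 0.05. Fold changes are log2 values from that model, and CPM are TMM-scaled. Groups follow the labels, and replicates of a group differed by more than counting noise (mean chi-square per gene 2.33 to 30.8). The fit was tested on simulated data. Alternatives were other scalings and filters, unrounded counts, DESeq2 1.42.0, the compared groups alone, a replicate block and each library left out. Exon lengths came from GENCODE 29 (57055 identifiers matched) and promoter windows from RefSeq GRCh38.p14. Symbols came from a separate list of gene names, which gave a symbol to 56558 identifiers (93.2%). Strand was not stated for counting, so overlapping antisense transcripts could not be told apart.

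The members and gene lists were chosen with earlier results of these data known. The text names all 10 carriers, and of each other list the genes that passed with the 3 highest and 3 lowest fold changes between 500 and 20 µg/mL of Sayeok-tang and of Bojungikgi-tang, plus SLC7A11, ATF4 and SLC1A3. Where Banhasasim-tang values of other list genes are given (ATF5 among them), they were chosen after their values were seen. For SLC7A5, SLC3A2 and SLC7A8, the 3 genes with the highest correlation over group means are named.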

Additional observations from a re-analysis of the deposited data

Results flagged for a closer look

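For 8 of the 10 carriers the dose response from 20 to 500 µg/mL differed between formulas, and the difference itself was tested as an edgeR interaction contrast with adjustment over all genes. Of all genes, 4.49% were called for Sayeok-tang minus Bojungikgi-tang, 31.8% for Banhasasim-tang minus Bojungikgi-tang and 24.4% for Banhasasim-tang minus Sayeok-tang. These shares are per contrast, in which 7, 8 and 8 carriers were called. The 8 carriers named first are those called in at least 1 contrast, and the share of all genes called in at least 1 was not counted. Sayeok-tang minus Bojungikgi-tang gave 0.66 for SLC3A2, 0.58 for SLC6A9, 0.48 for SLC38A1, 0.45 for SLC7A5, 0.45 for SLC1A4, 0.40 for SLC1A5 and -0.51 for SLC7A8 on the log2 scale. Banhasasim-tang minus Bojungikgi-tang gave 1.26 for SLC1A4, 1.14 for SLC38A1, 1.02 for SLC6A9, 1.01 for SLC3A2, 0.91 for SLC7A5, 0.71 for SLC1A5, 0.51 for SLC7A1 and -1.23 for SLC7A8. Banhasasim-tang minus Sayeok-tang gave 0.81 for SLC1A4, 0.66 for SLC38A1, 0.46 for SLC7A5, 0.44 for SLC6A9, 0.36 for SLC7A1, 0.35 for SLC3A2, 0.31 for SLC1A5 and -0.72 for SLC7A8. SLC7A8 is the carrier whose differences run against the others.

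The 3 contrasts share groups, and Banhasasim-tang belongs to another label set than the other 2 formulas. The SLC7A5 call was lost under some alternatives for Sayeok-tang minus Bojungikgi-tang. For Banhasasim-tang minus Sayeok-tang the calls of SLC7A5 and SLC7A1 were.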

How the results depend on the processing

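Of 36 alternatives, 27 left out a library. The longest transcript in place of all exons changed only the levels per kilobase, and moved all 10 of those in vehicle. Under the other alternatives 2729 tested values of the carriers were recomputed. No call changed direction, 70 values lost the call and 36 gained it. The other 2623 stayed called or not called as before, and 57 of these, called neither way, changed sign. Library size scaling called 2381 genes between 100 and 20 µg/mL of Banhasasim-tang (1296 with TMM). Without a filter 757 genes (307 with it) were called between these doses of Bojungikgi-tang and 174 (6) of Sayeok-tang, and DESeq2 called 538 and 31. Fitted alone, the compared groups gave against vehicle 2758 genes for 20 µg/mL of Bojungikgi-tang (5139) and 5603 for 20 µg/mL of Banhasasim-tang (3589), 1336 genes and 4 carriers between 500 and 20 µg/mL of Bojungikgi-tang (3051 and 7), 6 genes and 0 carriers between its 100 and 20 µg/mL (307 and 1), 2381 genes for 100 against 20 µg/mL of Banhasasim-tang (1296), and 478 for the difference of Sayeok-tang and Bojungikgi-tang (882). The cause was not tested. Leaving out a library gave 656 to 691 genes for Banhasasim-tang 100 against 20 µg/mL, 3288 to 4966 for its 100 µg/mL against vehicle and 1183 to 3180 genes with 2 to 6 carriers for its 20 µg/mL. For Bojungikgi-tang it gave 93 to 865 genes and 0 to 1 carriers between 100 and 20 µg/mL, and 4 to 8 carriers between 500 and 20 µg/mL. For Sayeok-tang 100 against 20 µg/mL it gave 1 to 12 genes. The replicate numbers did not pair the libraries (correlations of same-numbered deviations from -0.0525 to 0.124), and with the replicate block 3186 genes were called between 500 and 20 µg/mL of Bojungikgi-tang, with every count within 1.5 times and 3 further carrier values called. Depth limits SLC43A1 most, with 35 to 50 counts in a vehicle library. Where leaving out a library left 1 in a group, it was assumed to vary like the other groups.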
